A study of Mus musculus with 24 samples.

Results

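Oxidative phosphorylation subunits were taken as the genes whose symbols begin with Nduf followed by a, b, c, s or v, with Cox4 to Cox8, with Uqcr or with Atp5, together with Sdha, Sdhb, Sdhc and Sdhd. Symbols that begin with Ndufaf, which name assembly factors, were left out. The choice used names alone and found 86 of the 22009 named genes in the deposited table. By role, 36 members belong to complex I, 4 to complex II, 8 to complex III, 18 to complex IV and 15 to complex V, so 81 are subunits. Ndufa4, although named after complex I, was counted with complex IV, where its protein resides. The other 5 members matched by name only: Cox7a2l, a factor that links complexes III and IV, Atp5s and Atp5sl, Ndufa4l2, and the pseudogene Atp5l-ps1.

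Oxidative phosphorylation makes ATP at the inner mitochondrial membrane. Complexes I and II pass electrons from NADH and succinate to coenzyme Q, complex III passes them to cytochrome c and complex IV to oxygen, and complex V uses the proton gradient to make ATP. Most subunits are encoded in the nucleus, a few of complexes I, III, IV and V in mitochondrial DNA, and T cells that leave the resting state are known to enlarge both this system and glycolysis.

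The study followed RNA through the first day of T helper cell differentiation. CD4+ cells were purified from the spleens of wild-type adult C57BL/6 mice by negative selection with magnetic beads. Per a figure legend of the study, they were pooled from several animals. The study's methods also call the cells sequenced from skewing cultures naive and describe a cell sorting step for naive cells, whereas the labels and a figure legend give purified CD4+ cells, so whether these cells were sorted is not clear. Total RNA from 24 libraries was sequenced. The resting group held 2 libraries of unstimulated cells. Th0 cultures received plate-bound anti-CD3 and soluble anti-CD28; Th1 cultures received in addition anti-IL-4 and IL-12; Th2 cultures received IL-4 with antibodies to IL-12 and IFN-γ. Each condition was sequenced once at 4, 8, 12, 16, 20 and 24 h, which gave 18 cultures. In a separate series of 4 libraries, cells activated for 16 h spent a further 0, 1, 2 or 4 h in actinomycin, which blocks transcription; its skewing condition is not given. The resting libraries carry another tag in their labels than the cultures, and whether it marks a date or a preparation is not stated. Whatever it marks cannot be told apart from activation in comparisons with resting cells.

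Values are RPKM, read numbers scaled to the length of the transcript and to the mapped reads of the library, so a level is a share of all RNA of the library and per length. The steps between low values gave the number of mapped reads, which ran from 17512385 in the Th2 12 h culture to 33017133 in the Th1 12 h culture with a median of 24826351. These numbers are inferred and not reported. Of 1284 genes with 1 annotated transcript whose values gave whole steps, 734 gave the same number. Read counts of members given below rest on it. For 28 members every value was a whole number of reads of 1 transcript length within a tolerance of 0.02 reads. Of the 86 members, 84 were above 0 in at least 1 library, and Cox7b2 and Cox8c were at 0 in all 24. A mean of at least 1 RPKM over the 20 libraries of the time course was needed for a test, and 79 members passed. Cox4i2, Cox6a2, Cox7a1, Cox8b and Ndufa4l2 did not, besides the pair at 0, so counts of members below are out of 79.

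The labelled cell type was checked against marker genes. The 7 of 8 T cell markers in the table summed to 1979 and 1992 RPKM in the resting libraries and to between 1121 and 1383 RPKM (median 1281) in the cultures. Cd4 itself stood at 328 and 326 RPKM at rest and between 111 and 227 RPKM in the cultures. Cd28 went the other way, from 66.5 and 66.7 RPKM at rest to 127, 137 and 104 RPKM in Th0, Th1 and Th2 at 24 h. Cd8a stood at 2.02 and 1.61 RPKM at rest. Each of the 9 red cell genes present (12 listed) was above 1 RPKM at rest, where they summed to 38899.5 and 42453 RPKM, led by Hbb-bs. Their sum was 34276, 29414 and 47155 RPKM in the Th0, Th1 and Th2 cultures at 4 h and 204, 142 and 212 RPKM at 24 h. The red cell sum was thus far lower at 24 h than at rest or at 4 h. Per the study's methods, spleen cells meant for skewing cultures were treated to lyse red cells ahead of the bead selection. The 10 monocyte and macrophage markers, all present and led by Hmox1, summed to 822 and 839 RPKM at rest and to between 17.1 and 115 RPKM (median 50.6) in the cultures, the highest being at 4 h.

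Other lineages were lower. The 8 B cell markers, led by Cd79b at rest, summed to 72.6 and 82.6 RPKM at rest and from 10.2 to 59.4 RPKM (median 20.0) in the cultures. The 4 natural killer cell markers, led by Klrk1 and Klrb1c at rest, summed to 56.6 and 56.0 RPKM at rest and from 20.7 to 44.9 RPKM (median 28.1) in the cultures. Of these, Eomes went the other way, from 8.56 and 8.21 RPKM at rest to 25.4, 18.3 and 11.6 RPKM in Th0, Th1 and Th2 at 24 h, while the other 3 were lower than at rest. The 5 platelet markers, led by Ppbp at rest, summed to 32.0 and 35.2 RPKM at rest and from 2.91 to 40.1 RPKM (median 8.65) in the cultures. The 6 neutrophil markers, led by Mpo at rest, summed to 13.7 and 10.9 RPKM at rest and from 0.795 to 13.4 RPKM (median 6.40) in the cultures, with Ly6g at 0 in both resting libraries. The 5 dendritic cell markers, led by Itgax at rest, summed to 10.8 and 12.7 RPKM at rest and from 3.23 to 10.1 RPKM (median 5.31) in the cultures, and the 2 CD8 T cell markers, led by Cd8b1, to 12.4 and 12.7 RPKM at rest and from 6.59 to 15.7 RPKM (median 8.61) in the cultures. Most of these sums moved in the same hours as the members, and their part in the members' changes against resting cells was not tested. In bulk samples such as these, fewer cells of a type and less RNA per cell cannot be told apart.

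Some libraries stood apart in the kind of transcript they held, and the members are short: their median transcript length was 655 bases against 2062 bases over all genes tested with a known length, and 60 of the 77 members with a length fell in the shortest 20% of transcripts. Against the other cultures of its time point, the Th2 4 h culture was higher by a median log2 difference of 0.12 in the shortest 20% of transcripts and at -0.16 in the longest 20%. The Th2 24 h culture stood at 0.15 in the 20% of transcripts lowest in GC and at -0.22 in the highest 20%. The Th0 and Th1 4 h cultures differed in the 20% highest in GC, at 0.19 and -0.21, in that order. All later actinomycin libraries differed from the 0 h library. In the 20% lowest in GC the 1, 2 and 4 h libraries stood at -0.23, -0.12 and -0.25, and in the 20% highest at 0.06, -0.05 and 0.24. In the shortest 20% they stood at 0.05, 0.05 and 0.08, and in the longest 20% at -0.12, -0.16 and -0.01. For several results below, values without these libraries are given beside those with them.

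The summed level of the 86 members, as a share of the RPKM of all genes, was 1.18% in both resting libraries. It was 1.09%, 1.09% and 1.30% in the Th0, Th1 and Th2 cultures at 4 h, and 1.91%, 1.90% and 2.05% at 24 h. Resting and 4 h values overlapped, whereas each later culture lay above both resting libraries. The mean over the 3 cultures of a time point was 1.42% at 8 h, 1.67% at 12 h, 1.75% at 16 h and 1.91% at 20 h. In summed RPKM, complex I went from 1782 ± 13.2 (mean ± SD, n = 2) at rest to 2804 ± 266 (n = 3) at 24 h, and complex II from 287 ± 5.17 to 448 ± 5.41. Complex III went from 816 ± 8.20 to 1451 ± 278, complex IV from 1492 ± 12.5 to 2547 ± 320.1 and complex V from 2509 ± 1.20 to 4652 ± 115. For all 5 complexes the difference was larger than the spread between the libraries of either group, and the wide SD of complex III at 24 h came from the Th2 culture at 1769 RPKM, against 1324 RPKM in Th0 and 1259.8 RPKM in Th1.

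Changes were tested gene by gene with limma over the 10897 genes whose mean reached 1 RPKM, on log2(RPKM + 0.5), with p-values adjusted by the Benjamini-Hochberg method over all of them. A gene was said to have risen or fallen where its adjusted p was under 0.05. The cultures of a time point, 1 of each condition, served as its libraries, so the p-values measure only the spread between these cultures of 1 pool of cells, and the contrasts with resting cells all share the same 2 resting libraries. The added 0.5 makes log2 changes of genes near that level smaller than their ratio of RPKM. At 4 h, limma called 0 members risen, against 11.5% of all genes tested, and 7 fallen, against 20.2%, with 12 members at an unadjusted p under 0.05. The median log2 change of the members was -0.10 and that of all genes -0.04. At 8 h, 23 rose against 22.5% of all genes and 7 fell against 27.9%, with a median of 0.21 beside -0.06 for all genes. At 12 h, 45 rose against 28.9% and 6 fell against 32.5%, the medians being 0.46 and -0.07. At 16 h the counts were 48 risen against 30.3% and 3 fallen against 29.4%, with medians of 0.54 and -0.01. At 20 h they were 56 against 32.1% and 4 against 31.7%, with medians of 0.70 and -0.01. At 24 h, 60 members rose against 31.6% of all genes and 4 fell against 33.6%, with medians of 0.74 and -0.04. A change of at least 2-fold besides was found for 23 risen members, against 12.7% of all genes, and for 2 fallen members, against 17.4%.

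The early counts depended on single libraries. The shares of all genes above belong to the fit with all libraries of the time course. The refit counts below have no such share beside them, so they describe how stable the calls were and not a difference from all genes. At 4 h the 7 calls became 20 without the Th2 cultures, 4 without the Th0 cultures, 1 without the Th1 cultures, and 1 and 2 without the first and the second resting library. Without the Th2 4 h and Th2 24 h cultures alone there were 17. The members' median at 4 h became -0.01 without the Th0 cultures (all genes -0.07), -0.01 without the Th1 cultures (all genes -0.04) and -0.21 without the Th2 cultures (all genes -0.05). Without Th0 or Th1 it thus lay above that of all genes, and without Th2 below it. At 8 h the 30 members that changed in either direction became 10 without the Th1 cultures, and 16 and 18 without each resting library. From 12 h on, leaving out a condition or a resting library kept the number of changed members within 1.5 times its value. By culture, the median change of the members at 4 h was -0.21 for Th0, -0.20 for Th1 and 0.20 for Th2. At 24 h, in the same order, it was 0.70, 0.65 and 0.85.

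**Figure D1:**
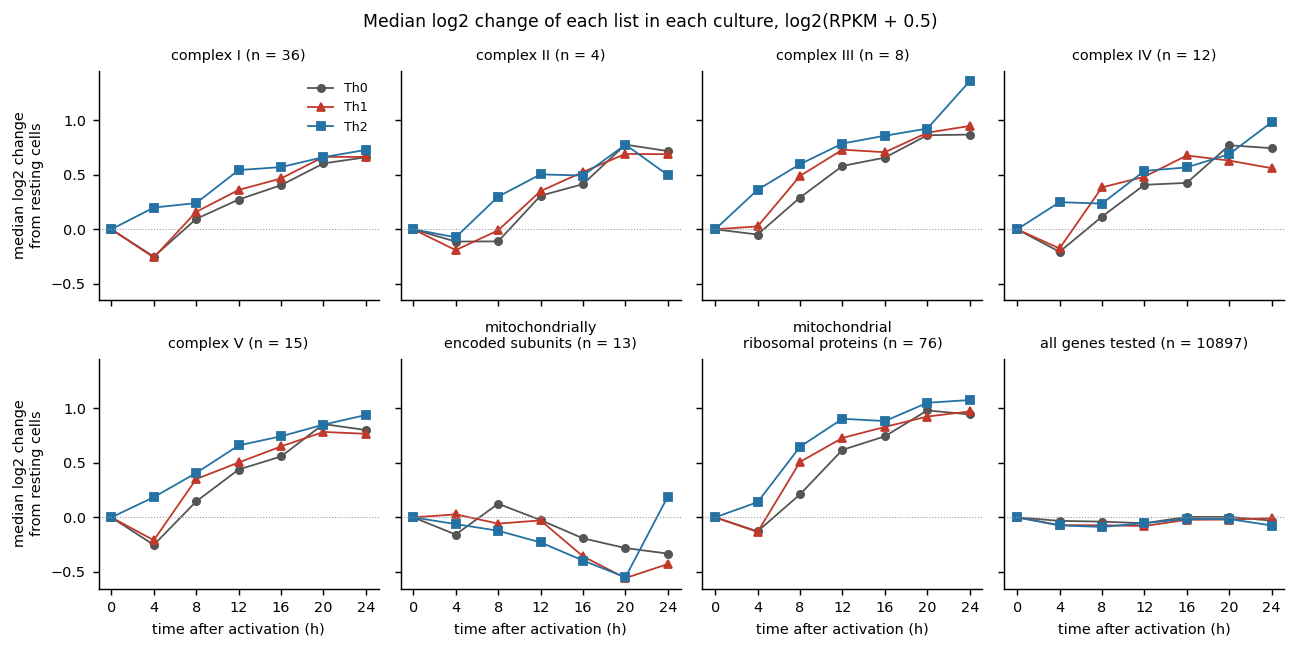
Median log2 change from the mean of the resting libraries (vertical axis) against hours after activation (horizontal axis) for the tested members of each complex, 2 other lists and all genes tested, with 1 line per skewing condition and 1 culture per point. At 24 h complex III stood at 0.87, 0.95 and 1.36 in Th0, Th1 and Th2, while the median of all genes stayed near 0.

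The scaling of the libraries set the size of the rise and not its direction in the 24 h contrast. The median of all genes at 24 h was -0.04 with the deposited values. It shifted by 0.13 under median-of-ratios scaling, by 0.16 under quantile normalization and by -0.11 with the red cell genes taken out of each library's total. Relative to it, the members' median stood 0.77 higher with the deposited values, 0.78 under median-of-ratios scaling, 0.77 without red cell genes and 0.40 under quantile normalization. At 8 h the members' median, 0.27 above that of all genes with the deposited values, stood 0.04 above it under quantile normalization (0.12 and 0.07). Under median-of-ratios scaling the difference was 0.28. Quantile normalization also lowered it at 12 h, from 0.53 to 0.25. It lowered it from 0.55 to 0.24 at 16 h and from 0.71 to 0.40 at 20 h.

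The members with the largest rises at 24 h came from 4 complexes. Atp5g1, which encodes the c subunit of the complex V rotor, stood at 35.4 and 43.6 RPKM at rest and at 118, 120.1 and 131 RPKM in Th0, Th1 and Th2 at 24 h (log2 change 1.63 ± 0.26, adjusted p 4.94e-05). Ndufa12, an accessory subunit of the matrix arm of complex I, stood at 34.2 and 33.3 RPKM and 111, 103 and 100.5 RPKM (log2 change 1.62 ± 0.24, adjusted p 2.52e-05). Cox5a, a subunit of the nuclear-encoded shell of complex IV, stood at 80.3 and 81.6 RPKM and 223, 239 and 227 RPKM (log2 change 1.50 ± 0.17, adjusted p 1.92e-06). Every 24 h culture lay above both resting libraries for these genes. Since the genes were picked for the size of this rise, that separation is no further support for it. Ndufab1, the mitochondrial acyl carrier protein of complex I, stood at 35.3 and 39.3 RPKM and 99.2, 112 and 97.7 RPKM (log2 change 1.45 ± 0.17, adjusted p 1.79e-06). Uqcr10, a small subunit of complex III, stood at 68.6 and 71.6 RPKM and 171, 172 and 237 RPKM (log2 change 1.44 ± 0.18, adjusted p 3.88e-06). Here too the groups did not overlap, with the same limit, and Uqcr10 was highest in Th2. Of the reads that could come from these genes, 17.7% of the 50-base windows of Ndufa12 and 10.2% of those of Atp5g1 also occur in other annotated genes, so their levels may hold reads of those copies.

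The 100 bases before the annotated start are shown for these 5 genes, for the 3 with the largest falls, which are described below, and for the relatives of Atp5g1. They come from RefSeq on build GRCm38.p6, whose promoter table matched 70 of the 86 members, 3 of them by an older symbol. Capitals mark a match to a motif searched on both strands. In the order shown the windows lie at chr11:96075632-96075731 (minus strand), chr10:94198935-94199034 (plus strand), chr9:57521132-57521231 (plus strand), chr7:122101849-122101948 (minus strand), chr11:4704345-4704444 (minus strand), chr7:4753095-4753194 (minus strand), chr17:83514334-83514433 (minus strand), chr7:25619314-25619413 (plus strand), chr15:102671048-102671147 (minus strand) and chr2:73911327-73911426 (minus strand).
Atp5g1: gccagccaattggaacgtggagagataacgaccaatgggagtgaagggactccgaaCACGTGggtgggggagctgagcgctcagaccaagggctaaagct
Ndufa12: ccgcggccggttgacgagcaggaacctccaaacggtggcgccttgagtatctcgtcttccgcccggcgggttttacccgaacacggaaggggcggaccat
Cox5a: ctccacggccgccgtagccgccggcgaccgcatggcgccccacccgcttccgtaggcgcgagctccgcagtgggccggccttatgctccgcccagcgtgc
Ndufab1: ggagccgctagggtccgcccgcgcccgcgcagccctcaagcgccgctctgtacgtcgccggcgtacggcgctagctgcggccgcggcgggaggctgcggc
Uqcr10: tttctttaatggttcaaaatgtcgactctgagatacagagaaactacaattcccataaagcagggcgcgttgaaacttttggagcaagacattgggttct
Cox6b2: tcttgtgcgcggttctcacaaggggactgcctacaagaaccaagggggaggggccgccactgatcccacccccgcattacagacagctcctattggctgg
Cox7a2l: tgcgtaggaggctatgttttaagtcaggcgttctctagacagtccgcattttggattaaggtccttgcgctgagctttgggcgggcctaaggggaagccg
Atp5sl: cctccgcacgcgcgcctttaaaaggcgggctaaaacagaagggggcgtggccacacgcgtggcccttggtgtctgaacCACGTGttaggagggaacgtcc
Atp5g2: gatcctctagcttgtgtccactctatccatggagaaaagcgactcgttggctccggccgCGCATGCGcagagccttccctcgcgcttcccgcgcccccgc
Atp5g3: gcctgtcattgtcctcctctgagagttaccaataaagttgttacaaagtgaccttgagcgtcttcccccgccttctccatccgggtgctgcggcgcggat

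The E-box CACGTG began 44 bases before the start of Atp5g1 and 22 bases before the start shown for Atp5sl. The NRF1 motif CGCATGCG began 41 bases before that of Atp5g2, and the other 7 windows held no match. Atp5sl has a further annotated start whose window is not shown. Relative to that start, the YY1 motif AAGATGGCG began at -53 and the same E-box at -101. The full windows of the table run from 250 bases before to 50 bases after the start. Over them, the NRF1 motif was found in 9 of the 70 members (12.9%), in 2.07% of all 27025 genes with a promoter and in 4.83% of the 8303 of these whose mean reached 1 RPKM in the time course. AAGATGGCG, a YY1 motif, was found in 8 members (11.4%), 1.64% of all genes and 4.02% of those expressed. The ETS motif CCGGAAGT, which GABPA binds, was in 5 members (7.14%), 4.31% and 10.1%. GGGCGGGG, an SP1 motif, was in 13 members (18.6%), 19.6% and 37.4%. CCAATCA was in 5 members (7.14%), 9.0% and 12.8%, and the E-box in 7 members (10.0%), 8.09% and 12.1%. The NRF1 motif lay in promoters of complex I (Ndufa8, Ndufa11), complex III (Uqcrc1, Uqcr11), complex IV (Cox6a1) and complex V (Atp5g2, Atp5j, Atp5k, Atp5l). A match describes letters and not binding. The members' windows had a median GC content of 57.5% and 19 CpG, against 60.7% and 21 in the windows of expressed genes.

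Complex I had 36 members in the table and all were tested. At 24 h 27 of them rose, against 31.6% of all genes, and 0 fell by limma, against 33.6%. Of the 36, 27 had an unadjusted p under 0.05. The median log2 change was 0.68 over the complex and 0.71 over its accessory subunits. Of the core subunits, which carry the flavin and iron-sulfur centres, Ndufv1 binds NADH and the flavin. It stood at 63.7 and 60.6 RPKM in resting cells, 47.2, 37.0 and 46.2 RPKM at 4 h and 73.4, 77.1 and 65.9 RPKM at 24 h. It had fallen at 4 h (log2 change -0.52 ± 0.14, adjusted p 0.00945), a call lost without the Th1 cultures (-0.41, adjusted p 0.123 in a range of 0.0021 to 0.123 over all alternatives) and without the first resting library (-0.48, adjusted p 0.0838). It stood slightly above rest at 24 h, where it did not pass the test (log2 change 0.21 ± 0.14, adjusted p 0.197) with the deposited values but did under median-of-ratios scaling (0.35, adjusted p 0.033 in a range of 0.0177 to 0.901 over all alternatives). It passed as well after adjustment for GC content and length (0.31, adjusted p 0.0177). Its partner Ndufv2, which carries an iron-sulfur centre, stood at 58.3 and 55.5 RPKM at rest and 102, 94.7 and 155 RPKM at 24 h (log2 change 1.00 ± 0.15, adjusted p 2.86e-05), highest in the Th2 culture.

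Ndufs1, the largest core subunit, stood at 42.2 and 37.7 RPKM at rest and 46.7, 47.9 and 69.2 RPKM at 24 h (log2 change 0.43 ± 0.15, adjusted p 0.0209). Its groups did not overlap, yet the call was lost without the second resting library (0.34, adjusted p 0.149 in a range of 0.00807 to 0.149 over all alternatives), without the Th1 cultures (0.51, adjusted p 0.0556) and without the Th2 4 h and Th2 24 h cultures (0.24, adjusted p 0.0713). It was also lost with only the libraries compared in the fit (0.43, adjusted p 0.0794), under quantile normalization (0.28, adjusted p 0.105) and with red cell genes out of the total (0.31, adjusted p 0.0602). Ndufs7, next to the coenzyme Q site, stood at 39.7 and 39.7 RPKM and 60.4, 69.5 and 50.5 RPKM (log2 change 0.58 ± 0.17, adjusted p 0.00655), and its call was lost without the Th1 cultures (0.47, adjusted p 0.0511 in a range of 0.000324 to 0.0511 over all alternatives). Ndufs8, which holds iron-sulfur centres, had the largest rise of the core subunits described here, from 26.6 and 28.8 RPKM to 54.4, 53.6 and 64.4 RPKM (log2 change 1.03 ± 0.17, adjusted p 5.21e-05). Ndufs3, of the matrix arm, went from 62.8 and 60.1 RPKM to 97.8, 101 and 101 RPKM (log2 change 0.69 ± 0.10, adjusted p 1.51e-05). All 24 h cultures were above rest for these core subunits.

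Among accessory subunits, changes at 24 h ran from 0.02 for Ndufv3 to 1.62 for Ndufa12. Ndufa3, a membrane-arm subunit and the complex I member with the highest mean RPKM over the time course, stood at 111 and 119 RPKM at rest and 126, 112 and 139 RPKM at 24 h, where the groups overlapped (log2 change 0.12 ± 0.13, adjusted p 0.415) and the sign changed under quantile normalization (-0.13, adjusted p 0.432 in a range of 0.12 to 0.974 over all alternatives). Ndufv3, which sits by the flavin site, stood at 55.5 and 51.1 RPKM in resting cells, 48.5, 32.3 and 30.9 RPKM at 8 h and 56.4, 48.5 and 57.4 RPKM at 24 h. It was lower than at rest at 8 h (log2 change -0.54 ± 0.18, adjusted p 0.022). That call was lost under median-of-ratios scaling (-0.42, adjusted p 0.0755 in a range of 0.00701 to 0.13 over all alternatives), with only the libraries compared in the fit (-0.54, adjusted p 0.114), without the Th1 cultures (-0.45, adjusted p 0.096), without the Th2 cultures (-0.42, adjusted p 0.0753), without the first resting library (-0.48, adjusted p 0.13) and without the second resting library (-0.60, adjusted p 0.0638). It lay on both sides of the resting libraries at 24 h (log2 change 0.02 ± 0.18, adjusted p 0.936), where its sign changed under 7 of the alternatives, as with quantile normalization (-0.15, adjusted p 0.523 in a range of 0.476 to 0.993 over all alternatives). Ndufb3, a membrane-arm subunit, had fallen at 4 h, from 43.6 and 39.4 RPKM to 23.9, 26.4 and 36.8 RPKM (log2 change -0.53 ± 0.18, adjusted p 0.0306). That call was lost without the Th0 cultures (-0.41, adjusted p 0.095 in a range of 0.00463 to 0.195 over all alternatives), the Th1 cultures (-0.48, adjusted p 0.156), the first resting library (-0.46, adjusted p 0.195) or the second (-0.60, adjusted p 0.0838), and under median-of-ratios scaling (-0.45, adjusted p 0.0883). It was lost too with only the libraries compared in the fit (-0.53, adjusted p 0.0885) and under upper-quartile scaling (-0.47, adjusted p 0.0629). Ndufa11 and Ndufb4, both of the membrane arm, had among the largest increases at 4 h, from 7.47 and 9.24 RPKM to 9.97, 9.46 and 14.3 RPKM and from 27.2 and 26.4 RPKM to 31.6, 30.2 and 41.6 RPKM. Neither passed the test at 4 h (log2 change 0.39 ± 0.21 and 0.34 ± 0.18, adjusted p 0.17 and 0.162), though Ndufa11 did under quantile normalization (0.64, adjusted p 0.0279 in a range of 0.0279 to 0.583 over all alternatives), and both had risen at 8 h, Ndufa11 not without the first resting library (0.59, adjusted p 0.0965 in a range of 0.000893 to 0.0965 over all alternatives).

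**Figure D2:**
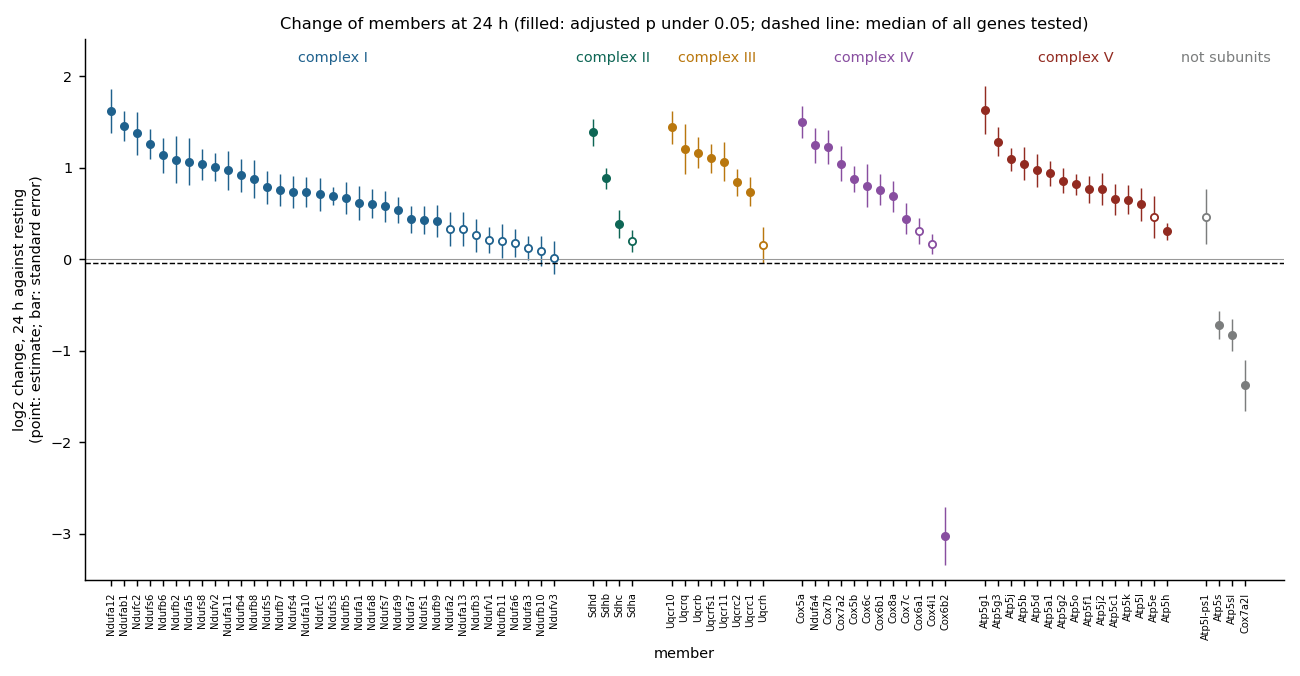
Fitted log2 change at 24 h against resting for the tested members but 1 (vertical axis; bars, standard error), grouped by complex and sorted within it. The member not drawn was not left out for its value, and the largest rise (Atp5g1, 1.63) and fall (Cox6b2, -3.02) are both drawn. Filled points had an adjusted p under 0.05, open points did not, and the dashed line is the median of all genes tested, -0.04.

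Complex II showed unequal changes among its 4 subunits. Sdha, the flavoprotein that oxidizes succinate, was its most abundant member and stood at 152 and 150.2 RPKM in resting cells, 120.3, 106 and 115 RPKM at 8 h and 183, 176 and 163 RPKM at 24 h. It had fallen at 8 h (log2 change -0.41 ± 0.12, adjusted p 0.0115), a call lost with only the libraries compared in the fit (-0.41, adjusted p 0.0576 in a range of 0.00169 to 0.132 over all alternatives), without the Th1 cultures (-0.36, adjusted p 0.132), without the first resting library (-0.40, adjusted p 0.0689) and without the second resting library (-0.42, adjusted p 0.0575). At 24 h the cultures were above rest without passing the test (log2 change 0.20 ± 0.12, adjusted p 0.163), except under median-of-ratios scaling (0.34, adjusted p 0.0106 in a range of 0.0106 to 0.627 over all alternatives). The sign changed under quantile normalization (-0.09, adjusted p 0.575). Sdhb, the iron-sulfur subunit, rose from 56.9 and 55.5 RPKM to 106, 105 and 102 RPKM (log2 change 0.88 ± 0.11, adjusted p 6.2e-06). The membrane anchor Sdhd rose further, from 45.6 and 50.9 RPKM to 113, 118 and 153 RPKM (log2 change 1.39 ± 0.15, adjusted p 8.05e-07), and increased at each step of the mean from 4 h (42.3 RPKM) through 12 h (71.0 RPKM) to 24 h (128 RPKM). The other anchor, Sdhc, named to complete the complex after its values were seen, went from 28.7 and 34.2 RPKM to 45.4, 44.1 and 34.8 RPKM (log2 change 0.39 ± 0.15, adjusted p 0.0345), and its Th2 culture lay just above the resting libraries. Its call was lost after adjustment for GC content and length (0.22, adjusted p 0.163 in a range of 0.00218 to 0.266 over all alternatives), with only the libraries compared in the fit (0.39, adjusted p 0.0577), under quantile normalization (0.31, adjusted p 0.0633), with red cell genes out of the total (0.27, adjusted p 0.157), without the Th0 cultures (0.32, adjusted p 0.127), without the Th1 cultures (0.34, adjusted p 0.176) and without the first resting library (0.26, adjusted p 0.266).

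In complex III, 7 of 8 members rose at 24 h, against 31.6% of all genes. Its median log2 change of 1.08 was the highest of the 5 complexes. Uqcrfs1, the Rieske protein that takes electrons from coenzyme Q, stood at 55.2 and 61.4 RPKM at rest and 109, 116 and 156 RPKM at 24 h (log2 change 1.10 ± 0.16, adjusted p 1.83e-05). The core proteins Uqcrc1 and Uqcrc2 went from 70.5 and 71.9 RPKM to 128, 131 and 101 RPKM and from 147 and 145 RPKM to 238, 230.5 and 330.2 RPKM (log2 change 0.74 ± 0.16 and 0.84 ± 0.15, adjusted p 0.000754 and 0.000101). These 3 genes were above rest in every 24 h culture, but the Th2 culture was the lowest of its time point for Uqcrc1 and the highest for Uqcrc2 and Uqcrfs1. Uqcrh, the hinge protein by cytochrome c1, had the highest mean level of the complex per length over the time course, 289 and 279.9 RPKM at rest and 301, 247 and 429.9 RPKM at 24 h. The Th1 culture lay below and the Th0 and Th2 cultures above the resting libraries, and the change did not pass the test (log2 change 0.16 ± 0.20, adjusted p 0.493). Its sign changed without the Th2 cultures (-0.06, adjusted p 0.702 in a range of 0.217 to 0.989 over all alternatives) and without the Th2 4 h and Th2 24 h cultures (-0.06, adjusted p 0.73), and quantile normalization left it near 0.

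Complex IV was represented by 11 common subunits and 7 isoforms known from particular tissues. At 24 h 9 of the 11 common subunits rose, against 31.6% of all genes, and 0 fell by limma, against 33.6%. Of the 11, 10 had an unadjusted p under 0.05, and the median log2 change was 0.80. Cox4i1, a shell subunit with the highest mean RPKM of them over the time course, stood at 240.0 and 250.1 RPKM at rest and 295, 281 and 249 RPKM at 24 h (log2 change 0.16 ± 0.11, adjusted p 0.2). The Th2 culture lay within the resting libraries; without the Th2 cultures the change passed the test (0.23, adjusted p 0.0353 in a range of 0.00975 to 0.765 over all alternatives), as it did under median-of-ratios scaling (0.31, adjusted p 0.0197) and after adjustment for GC content and length (0.32, adjusted p 0.00975). Quantile normalization changed its sign (-0.05, adjusted p 0.688). Cox6a1 stood at 142 and 157 RPKM and 176, 200.0 and 179.8 RPKM, short of the threshold (log2 change 0.31 ± 0.14, adjusted p 0.07) but past it without the Th2 cultures (0.33, adjusted p 0.0246 in a range of 0.0151 to 0.915 over all alternatives), without the Th2 4 h and Th2 24 h cultures (0.33, adjusted p 0.0249) and under median-of-ratios scaling (0.45, adjusted p 0.0151). It also passed after adjustment for GC content and length (0.32, adjusted p 0.0279), with only the libraries compared in the fit (0.31, adjusted p 0.0424) and under upper-quartile scaling (0.37, adjusted p 0.0273). Ndufa4, like Sdhc named after its values were seen, rose from 149 and 142 RPKM to 301, 286 and 478 RPKM (log2 change 1.24 ± 0.19, adjusted p 4.03e-05). Cox6b1 went from 179 and 176 RPKM to 296, 244 and 377 RPKM (log2 change 0.76 ± 0.16, adjusted p 0.000728), Cox7a2 from 77.1 and 56.5 RPKM to 133, 115 and 167 RPKM (log2 change 1.04 ± 0.19, adjusted p 0.00018), Cox7b from 93.6 and 87.3 RPKM to 195, 176 and 278 RPKM (log2 change 1.23 ± 0.18, adjusted p 2.24e-05) and Cox8a from 138 and 164 RPKM to 222, 231 and 277 RPKM (log2 change 0.69 ± 0.17, adjusted p 0.00179). For these the groups did not overlap. In exons, Cox4i1 overlaps Emc8 on the other strand, and the strand of counting is not stated.

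The tissue isoforms were low, with 1 exception at rest. Cox6b2, known from testis, stood at 13.6 and 11.6 RPKM in the resting libraries, 5.41, 6.53 and 5.73 RPKM at 4 h and 0.766, 1.33 and 1.29 RPKM at 24 h. It fell by more than any other tested member at every time point, the groups never overlapping (log2 change -3.02 ± 0.31, adjusted p 6.02e-07 at 24 h, and log2 change -1.04 ± 0.31, adjusted p 0.0181 at 4 h). The 4 h call, not the values, was lost without the Th0 cultures (-0.98, adjusted p 0.0704 in a range of 0.00271 to 0.137 over all alternatives) and without the first (-0.92, adjusted p 0.137) or second (-1.15, adjusted p 0.0626) resting library. Of the summed RPKM of Cox6b1 and Cox6b2, Cox6b2 made up 7.08% and 6.18% at rest and 0.258%, 0.543% and 0.340% at 24 h. Cox6a2, the heart and muscle partner of Cox6a1, stood at 2.00 and 2.58 RPKM at rest from 26 and 40 reads, and had 0 reads in all 3 cultures at 24 h. The exact 2-sided Poisson 95% intervals were 1.31 to 2.93 and 1.84 to 3.52 RPKM at rest. For the 0 reads at 24 h the 1-sided 95% upper limits, taken as 3 reads, were 0.170, 0.165 and 0.178 RPKM in Th0, Th1 and Th2; these limits cover counting error only. Cox6a2 shares exonic bases with Itgad on the other strand, so part of its reads could belong to that gene. Cox4i2, known from lung, ran from 0 to 0.549 RPKM over the 24 libraries, and Cox7a1, of heart and muscle, from 0 to 1.15 RPKM. Cox8b was above 0 in the actinomycin 1 h library alone, at 0.131 RPKM, and Cox7b2 and Cox8c were at 0.

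**Figure D3:**
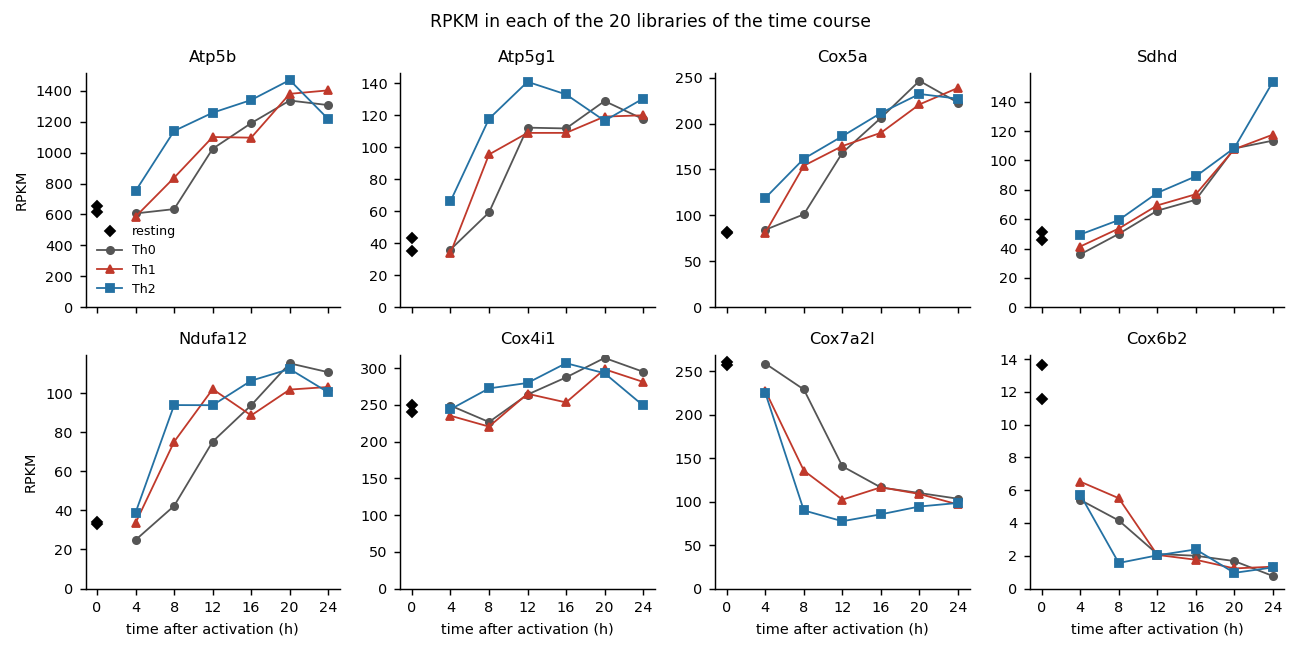
RPKM (vertical axis, from 0) in each of the 20 libraries of the time course against hours after activation for 8 members; black diamonds are the 2 resting libraries and each other point is 1 culture. Atp5b, Atp5g1, Cox5a, Sdhd and Ndufa12 end above the resting libraries, Cox4i1 stays between 220.4 and 314 RPKM in all of them, and Cox7a2l and Cox6b2 end below.

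In complex V, 14 of 15 members rose at 24 h, against 31.6% of all genes, and 0 fell by limma, against 33.6%. Of the 15, 14 had an unadjusted p under 0.05, and the median log2 change was 0.82. Atp5b, the catalytic beta subunit, had the highest level of all members, 615 and 654 RPKM in resting cells, 607, 586 and 752 RPKM at 4 h and 1307, 1402 and 1216 RPKM at 24 h (log2 change 1.04 ± 0.18, adjusted p 0.000108). Atp5a1, the alpha subunit, went from 307 and 315 RPKM to 620.1, 621 and 552 RPKM (log2 change 0.94 ± 0.14, adjusted p 2.04e-05). Both were above rest in every 24 h culture, with Th2 the lowest of the 3. Atp5d, the delta subunit of the central stalk, had 64.2 and 73.0 RPKM at rest and 89.3, 70.1 and 117 RPKM at 4 h, one of the largest early increases, which did not pass the test (log2 change 0.39 ± 0.18, adjusted p 0.106) except after adjustment for GC content and length (0.39, adjusted p 0.0293 in a range of 0.0293 to 0.415 over all alternatives).

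The genes Atp5g1, Atp5g2 and Atp5g3 encode the same mature c subunit, which forms the rotor ring, with different import sequences. Their summed level was 273 and 296 RPKM at rest and 650.1, 701 and 699 RPKM at 24 h. Atp5g3 was the main source, with 178 and 191 RPKM at rest and 426, 472 and 452 RPKM at 24 h (log2 change 1.28 ± 0.15, adjusted p 3.06e-06). It made up 65.1% and 64.5% of the sum at rest and 65.5%, 67.3% and 64.7% at 24 h. Atp5g2 had first fallen, from 59.8 and 61.5 RPKM to 37.2, 33.8 and 49.7 RPKM at 4 h (log2 change -0.60 ± 0.14, adjusted p 0.00267), a call lost without the Th1 cultures (-0.49, adjusted p 0.0689 in a range of 0.000145 to 0.0689 over all alternatives), and then rose to 107, 109 and 116 RPKM at 24 h (log2 change 0.86 ± 0.14, adjusted p 4.28e-05). The share of Atp5g2 in the sum went from 21.9% and 20.8% at rest to 16.4%, 15.5% and 16.6% at 24 h, while that of Atp5g1 went from 13.0% and 14.7% to 18.1%, 17.1% and 18.7%. The promoter windows of this set shown above differ in their motifs: an E-box for Atp5g1, an NRF1 motif for Atp5g2 and none for Atp5g3. Over the full windows Atp5g3 also held an E-box and Atp5g2 an SP1 motif, so Atp5g1 and Atp5g3 shared the E-box. Of the windows of the Atp5g2 transcripts, 38.4% also occur in other annotated genes, so its level is uncertain.

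Of the 4 tested members that are not subunits, 3 fell at 24 h, against 33.6% of all genes. With Cox6b2 they made up all 4 falls of members at 24 h. Cox7a2l helps join complexes III and IV, and the C57BL/6 strain is known to carry a shortened form of its protein. It stood at 258 and 260.1 RPKM in resting cells, 259, 228 and 225 RPKM at 4 h, 229, 136 and 89.9 RPKM at 8 h and 103, 96.7 and 98.5 RPKM at 24 h (log2 change -1.38 ± 0.28, adjusted p 0.000429). At 8 h the Th0 culture was still close to rest and the Th2 culture had the lowest value; by 24 h the 3 cultures were alike. Atp5sl, also called Dmac2, takes part in the assembly of complex I and stood at 22.7 and 20.5 RPKM in resting cells, 33.1, 23.0 and 21.4 RPKM at 4 h and 12.2, 13.8 and 10.1 RPKM at 24 h (log2 change -0.83 ± 0.17, adjusted p 0.000514). Atp5s, also called Dmac2l, stood at 3.17 and 2.46 RPKM and 1.61, 1.44 and 1.47 RPKM (log2 change -0.72 ± 0.16, adjusted p 0.000769), a fall that did not pass the test under quantile normalization (-0.05, adjusted p 0.795 in a range of 0.000297 to 0.795 over all alternatives). All of their 24 h cultures were below both resting libraries. Since these genes are among the largest falls picked at 24 h, that separation is no further support for the falls. The pseudogene Atp5l-ps1 stood at 10.1 and 8.85 RPKM and 8.84, 13.7 and 18.9 RPKM (log2 change 0.46 ± 0.30, adjusted p 0.186) and passed under quantile normalization (0.73, adjusted p 0.0374 in a range of 0.0133 to 0.559 over all alternatives) and without the Th0 cultures (0.74, adjusted p 0.0133). Of its windows, 55.1% occur in other genes, Atp5l among them. Ndufa4l2, a relative of Ndufa4, was at or below 0.238 RPKM in all 24 libraries.

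The contrast of 24 h with 4 h uses no resting library. Here 68 members rose, against 33.6% of all genes, and 4 fell, against 32.9%, with a median log2 change of 0.79 beside -0.01 for all genes. With at least 2-fold besides, 24 rose against 13.0% and 3 fell against 13.2%. All 4 members of complex II and all 15 of complex V rose, as did 33 of 36 of complex I, 7 of 8 of complex III and 9 of 11 common subunits of complex IV. Ndufc2, a membrane-arm subunit of complex I, had the largest rise, from 28.1, 25.3 and 40.7 RPKM in Th0, Th1 and Th2 to 99.6, 96.6 and 155 RPKM (log2 change 1.88 ± 0.21, adjusted p 1.31e-06). Ndufa12 went from 24.9, 33.6 and 38.9 RPKM (log2 change 1.70 ± 0.22, adjusted p 5.69e-06) and Sdhd from 36.0, 41.4 and 49.5 RPKM (log2 change 1.59 ± 0.13, adjusted p 6.9e-08) to the 24 h values given above. The largest falls were those of Cox6b2 (log2 change -1.99 ± 0.28, adjusted p 1.52e-05), Cox7a2l (log2 change -1.25 ± 0.25, adjusted p 0.000382) and Atp5sl (log2 change -1.06 ± 0.15, adjusted p 2.03e-05). For these 6 genes no 24 h culture overlapped the 4 h cultures. Since they were picked for the size of this change, that separation is no further support for it. The sum of red cell genes fell in the same interval, and with these genes out of the total the members' median stood at 0.66 beside -0.13 for all genes.

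Skewing conditions were compared over the 18 cultures with time point as a factor in limma, over the 10737 genes whose mean in them reached 1 RPKM. These comparisons share cultures with one another. The libraries of a condition are successive samples of cultures started from 1 pool, so they are not biological replicates of the condition, and the p-values measure the spread of a difference over time points. Between Th2 and Th0, 24 members were higher in Th2, against 12.9% of all genes tested, and 2 lower, against 16.7%, with a median log2 difference of 0.20 beside 0.00 for all genes. None differed by 2-fold. By complex, 10 of 36 members of complex I, 1 of 4 of complex II, 4 of 8 of complex III, 2 of 12 tested of complex IV and 7 of 15 of complex V were higher. The 26 differing members became 11 without the 4 h cultures, 14 without the 8 h cultures, 10 without the 12 h cultures and 10 with 12 to 24 h alone. The shares of all genes above belong to the fit with all 18 cultures, so these refit counts cannot be set against all genes. The median difference of the members was 0.41 at 4 h, 0.24 at 8 h, 0.18 at 12 h, 0.14 at 16 h, 0.04 at 20 h and 0.15 at 24 h. It was thus above 0 at each time and largest at 4 h, where the Th2 library held more of the short transcripts to which most members belong. The part of that in the 4 h difference was not tested. For the fit over all time points, the members' median ran from 0.135 to 0.247 over 19 alternatives, adjustment for GC content and length among them.

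The members with the smallest p between Th2 and Th0 belonged to complexes I, II and III. Ndufa5, of the matrix arm of complex I, had a lowest, median and highest level of 20.6, 55.7 and 66.0 RPKM over the 6 Th0 cultures and of 43.1, 68.8 and 97.0 RPKM over the Th2 cultures. It was higher in Th2 at 6 of 6 time points (log2 difference 0.54 ± 0.10, adjusted p 0.00107). Sdhd of complex II ran over 36.0, 69.5 and 113 RPKM in Th0 and 49.5, 83.5 and 153 RPKM in Th2 (log2 difference 0.28 ± 0.06, adjusted p 0.00577). Uqcrq, a small subunit of complex III, ran over 38.1, 100.2 and 111 RPKM and 79.4, 119 and 147 RPKM (log2 difference 0.51 ± 0.12, adjusted p 0.00655). Both were higher in Th2 at all 6 time points, though the ranges over time overlapped between conditions; with 12 to 24 h alone Uqcrq missed the threshold (0.30, adjusted p 0.0537 in a range of 0.00443 to 0.0537 over all alternatives). Ndufb9, of the membrane arm of complex I, ran over 53.1, 77.0 and 97.0 RPKM in Th0 and 76.1, 93.2 and 119 RPKM in Th2 and was also higher at 6 of 6 time points (log2 difference 0.32 ± 0.08, adjusted p 0.00724). The pair of members lower in Th2 were Cox7a2l (log2 difference -0.52 ± 0.13, adjusted p 0.00743) and Atp5sl (log2 difference -0.32 ± 0.08, adjusted p 0.0079), named here after their values were seen. Both were lower at 6 of 6 time points and neither is a subunit.

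Between Th1 and Th0, limma called 0 members higher, against 0.522% of all genes, and 0 lower, against 1.75%, with 3 at an unadjusted p under 0.05 and a median log2 difference of 0.07 beside -0.01. Without the 8 h cultures the median was 0.03, and with 12 to 24 h alone 0.03. The smallest p belonged to Ndufv3, lower in Th1 at 5 of 6 time points (log2 difference -0.26 ± 0.10, adjusted p 0.202). Next came Cox6c of complex IV, higher at 5 of 6 (log2 difference 0.30 ± 0.11, adjusted p 0.21), which passed without the 24 h cultures (0.41, adjusted p 0.0392 in a range of 0.0392 to 0.607 over all alternatives). Ndufa5 and Sdhb followed at 0.24 and 0.13 (adjusted p 0.239 and 0.336). Between Th2 and Th1, limma called 0 members higher, against 3.49%, and 0 lower, against 8.71%, with 21 at an unadjusted p under 0.05 and a median of 0.13 beside 0.02. That median was 0.09 without the 4 h cultures and 0.08 without the Th2 4 h and Th2 24 h cultures. Without the 8 h cultures 7 members differed, without the 24 h cultures 4, and without the Th2 4 h and Th2 24 h cultures 5. These refit counts likewise have no share of all genes beside them. The smallest p belonged to Uqcr11, a small subunit of complex III (log2 difference 0.31 ± 0.10, adjusted p 0.0617), which passed under median-of-ratios scaling (0.34, adjusted p 0.0438 in a range of 0.0192 to 0.223 over all alternatives), after adjustment for GC content and length (0.30, adjusted p 0.0192) and under upper-quartile scaling (0.33, adjusted p 0.0399). Sdhd (log2 difference 0.20 ± 0.06, adjusted p 0.0618), Ndufa5 (log2 difference 0.29 ± 0.10, adjusted p 0.0634) and Cox8a (log2 difference 0.25 ± 0.09, adjusted p 0.0715) followed. Sdhd passed with no filter (0.20, adjusted p 0.047 in a range of 0.047 to 0.198 over all alternatives), and Ndufa5 with 12 to 24 h alone (0.30, adjusted p 0.0271 in a range of 0.0271 to 0.245 over all alternatives) and with only the 2 conditions in the fit (0.29, adjusted p 0.0277). These 4 genes were higher in Th2 than in Th1 at all 6 time points.

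**Figure D4:**
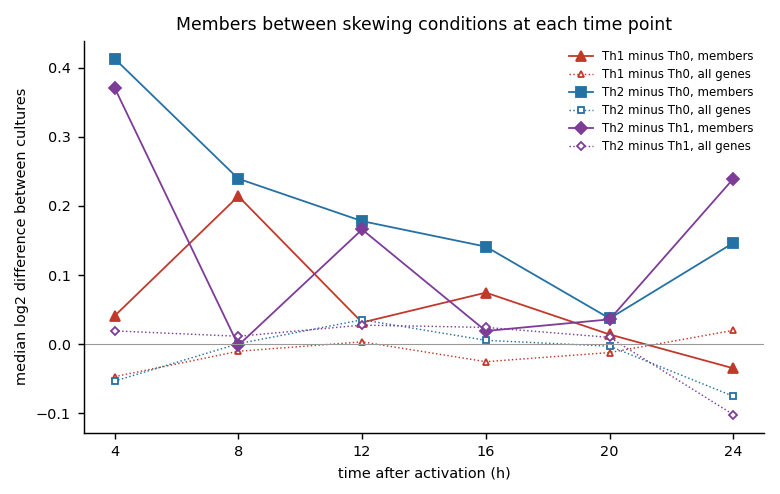
Median log2 difference between the cultures of 2 conditions (vertical axis) at each time point (horizontal axis) over the 79 tested members (solid lines) and over all genes (dotted lines), with 1 culture per condition and time. Th2 minus Th0 starts at 0.41 and lies at 0.04 at 20 h.

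With transcription blocked, levels show how slowly a transcript is lost relative to all RNA of the library. There was 1 library per time, the slope of log2(RPKM + 0.1) over the hours was taken for each gene, and an exact 2-sided permutation of the 4 times can reach no p below 0.0417. The median slope of the 79 members was 0.03 log2 per hour and that of all genes 0.00. Of the members, 48 had a slope above 0 and 31 below, beside 5365 and 5206 of 10571 genes. The members' counts became 23 and 56 without the 0 h library, and 60 and 19 without the 4 h library. Without the 0 h library the members' median slope was -0.04, and without the 4 h library 0.11, so its sign rests on single libraries. After adjustment for GC content and length it was -0.01. The median log2 change of the members from 0 h was 0.18 at 1 h, 0.22 at 2 h and 0.15 at 4 h, beside -0.05, -0.08 and 0.00 for all genes. The shortest 20% of transcripts, where most members lie, stood above all genes in each of these libraries, as given above, and these changes were not adjusted for length. Marker genes also moved in this series. The red cell sum was 2523, 1405, 1150.2 and 2279.6 RPKM at 0, 1, 2 and 4 h, and the monocyte and macrophage sum 77.6, 88.5, 95.7 and 83.9 RPKM. Within the latter, Cd68 went through 3.82, 10.3, 13.5 and 30.5 RPKM and Lyz2 through 45.9, 49.8, 60.0 and 21.5 RPKM. The neutrophil sum was 17.4, 19.0, 14.0 and 7.02 RPKM, the platelet sum 12.1, 9.99, 12.1 and 19.5 RPKM and the T cell sum 1410.1, 1581, 1556 and 1529.5 RPKM. The part of other cells in the slopes was not tested. By complex the median slopes were 0.01, -0.01, 0.02, 0.03 and 0.03 log2 per hour for complexes I to V. Without the 4 h library they were 0.11, -0.01, 0.07, 0.10 and 0.12, beside -0.04 for all genes. Without the 0 h library they were -0.06, -0.05, -0.03, -0.03 and -0.03, beside 0.01.

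The steepest loss was that of Uqcrfs1, the Rieske protein of complex III, at 116, 99.0, 87.0 and 50.9 RPKM after 0, 1, 2 and 4 h (slope -0.30 log2 per hour, exact permutation p 0.0417). Uqcrc2, a core protein of the same complex, stood at 291, 242, 262 and 135 RPKM (slope -0.27 log2 per hour, exact permutation p 0.0833), and Ndufs1 of complex I at 55.3, 43.7, 42.2 and 29.8 RPKM (slope -0.21 log2 per hour, exact permutation p 0.0417). Uqcrfs1 and Ndufs1 went down at each step, while most of the loss of Uqcrc2 came in the last library, without which its slope was -0.08. At the other end, Cox7a2l stood at 93.2, 103, 173 and 170.3 RPKM (slope 0.24 log2 per hour, exact permutation p 0.167), Atp5sl at 16.4, 16.8, 17.3 and 26.2 RPKM (slope 0.17 log2 per hour, exact permutation p 0.0417) and the pseudogene Atp5l-ps1 at 9.96, 13.6, 15.9 and 16.5 RPKM (slope 0.17 log2 per hour, exact permutation p 0.125). None of these 3 is a subunit, and Cox7a2l and Atp5sl are also the members with the largest falls after activation among non-subunits. The increase of Atp5sl came in the 4 h library, without which its slope was 0.04. Cox7a2l and Atp5l-ps1 hardly changed from 2 h to 4 h, so their slopes were steeper without the 4 h library. Across the 79 members, the slope and the log2 change at 24 h had a Spearman rho of -0.33, beside -0.29 across 10424 genes; genes are not independent replicates. Without the actinomycin 4 h library these were -0.01 and -0.16, so the relation over the members rested on that library. The slope and the transcript length of 77 members had a rho of -0.36, beside -0.04 across 9914 genes (-0.36 and -0.21 without the 4 h library, -0.23 and 0.07 without the 0 h library). Length and the change at 24 h had 0.10 across the same members.

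**Figure D5:**
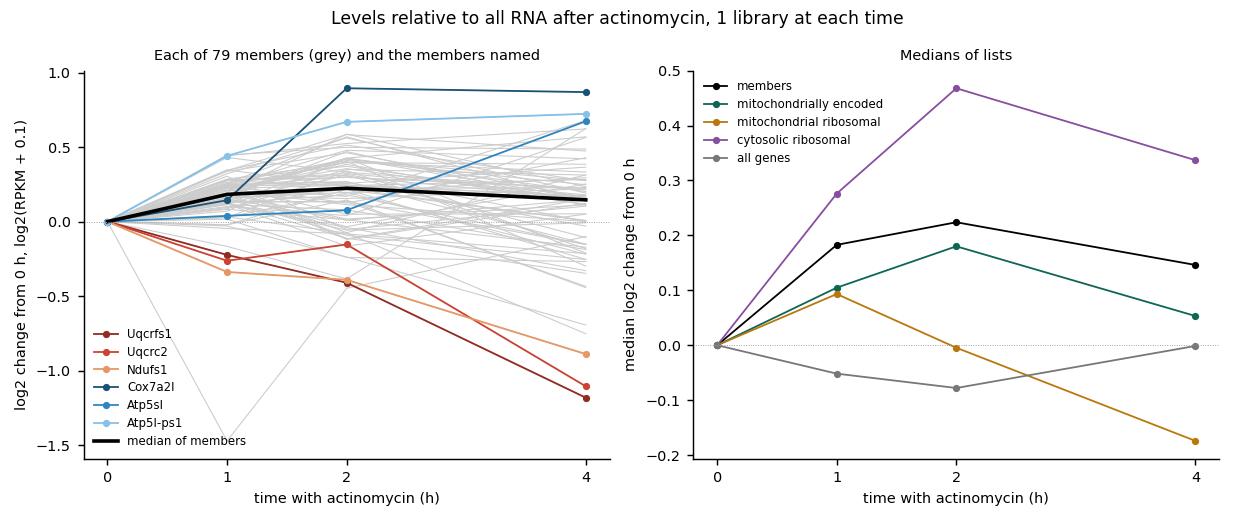
Log2 change from the 0 h library (vertical axis) against hours with actinomycin (horizontal axis), on log2(RPKM + 0.1), for each of 79 members with the 6 named ones in colour (left) and as medians of lists (right), 1 library per time. At 4 h the members' median was 0.15, that of the mitochondrial ribosomal proteins -0.17 and that of the cytosolic ribosomal proteins 0.34.

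Partners of the members were read in the same fits, and the counts of each list at 24 h are to be read beside the 31.6% of all genes tested that rose and the 33.6% that fell. For every gene named from these lists with an adjusted p under 0.05, the 24 h cultures did not overlap the resting libraries. Apart from the most abundant gene of each list, these were picked for the size of that change. For them the separation is no further support. The 13 subunits encoded in mitochondrial DNA summed to 55179.9 ± 1671 RPKM at rest, 9.10% of the total, and to 49235 ± 12355 RPKM or 7.96% at 24 h. Of these 1 rose and 1 fell at 24 h, with a median log2 change of -0.19, while the nuclear-encoded subunits had 0.76. The Th2 24 h culture stood apart, its median being 0.19 against -0.33 in Th0 and -0.43 in Th1. mt-Co1, the catalytic subunit of complex IV and the most abundant, stood at 10361 and 10022 RPKM at rest and 6791, 6527 and 9641 RPKM at 24 h (log2 change -0.44 ± 0.16, adjusted p 0.0249). That call was lost without either resting library (-0.41, adjusted p 0.11 in a range of 0.000187 to 0.189 over all alternatives, and -0.46, adjusted p 0.0769) and without the Th0 (-0.36, adjusted p 0.124) or Th1 cultures (-0.33, adjusted p 0.189). It was not kept under median-of-ratios scaling (-0.29, adjusted p 0.166), with no filter (-0.44, adjusted p 0.183), with only the libraries compared in the fit (-0.44, adjusted p 0.118) and under upper-quartile scaling (-0.37, adjusted p 0.0714) either. The direction flipped under quantile normalization (0.18, adjusted p 0.0304). mt-Nd1 of complex I rose from 2466 and 2491 RPKM to 3511, 3648 and 5653 RPKM (log2 change 0.75 ± 0.16, adjusted p 0.000649). mt-Nd2 of complex I (log2 change 0.35 ± 0.15, adjusted p 0.0509) and mt-Atp8 of complex V (log2 change -0.45 ± 0.23, adjusted p 0.09) did not pass, except mt-Nd2 without the Th0 cultures (0.47, adjusted p 0.0334 in a range of 0.0169 to 0.255 over all alternatives) and mt-Atp8 without the Th2 cultures (-0.64, adjusted p 0.0107 in a range of 0.00377 to 0.53 over all alternatives). Further, mt-Nd2 passed with a filter at 5 RPKM (0.35, adjusted p 0.0447), under median-of-ratios scaling (0.50, adjusted p 0.0169) and under upper-quartile scaling (0.42, adjusted p 0.0359). The call of mt-Atp8 was gained after adjustment for GC content and length (-0.54, adjusted p 0.00377), with red cell genes out of the total (-0.57, adjusted p 0.029) and without the Th2 4 h and Th2 24 h cultures (-0.64, adjusted p 0.0229). The sign of mt-Atp8 changed under quantile normalization (0.13, adjusted p 0.53).

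Of 46 assembly factors, which build the complexes, 26 rose and 1 fell at 24 h (median log2 change 0.47). Ndufaf4, for complex I, went from 11.6 and 12.1 RPKM to 40.8, 40.1 and 57.1 RPKM (log2 change 1.89 ± 0.29, adjusted p 3.69e-05), and Uqcc2, for complex III, from 29.4 and 34.1 RPKM to 90.6, 91.9 and 131 RPKM (log2 change 1.69 ± 0.24, adjusted p 1.84e-05). Surf1, for complex IV, was the one that fell (log2 change -0.44 ± 0.17, adjusted p 0.0295), a call lost without the Th1 cultures (-0.39, adjusted p 0.147 in a range of 0.00296 to 0.177 over all alternatives), without either resting library (-0.35, adjusted p 0.177, and -0.52, adjusted p 0.0535) under median-of-ratios scaling (-0.30, adjusted p 0.135) and under upper-quartile scaling (-0.37, adjusted p 0.0594). Cox20, the most abundant, and Cmc1, both for complex IV, did not pass (log2 change 0.14 ± 0.16 and -0.34 ± 0.23, adjusted p 0.453 and 0.211), except Cmc1 after adjustment for GC content and length (-0.58, adjusted p 0.031 in a range of 0.031 to 0.509 over all alternatives). The sign of Cox20 changed under 4 alternatives, among them quantile normalization (-0.07, adjusted p 0.718 in a range of 0.142 to 0.966 over all alternatives). Of 18 enzymes of the tricarboxylic acid cycle and pyruvate dehydrogenase, 14 rose and 0 fell by limma, 15 having an unadjusted p under 0.05 (median 0.55). Fh1, fumarase, which uses the product of complex II, went from 25.2 and 34.3 RPKM to 72.3, 79.2 and 127 RPKM (log2 change 1.59 ± 0.23, adjusted p 2.02e-05). Mdh2 and Idh3a rose as well (log2 change 1.07 ± 0.18 and 1.24 ± 0.22, adjusted p 9.33e-05 and 0.000148), while Ogdh and Idh2 stood at -0.05 and 0.00 (adjusted p 0.743 and 0.989). They had the other sign under 5 and 5 alternatives, median-of-ratios scaling being one for each (0.09, adjusted p 0.504 in a range of 0.0544 to 0.967 over all alternatives for Ogdh, and 0.14, adjusted p 0.658 in a range of 0.538 to 1 over all alternatives for Idh2). Of 15 genes for electron carriers and coenzyme Q synthesis, 10 rose and 0 fell by limma, 10 having an unadjusted p under 0.05 (median 0.69). Cycs, cytochrome c, went from 32.5 and 30.2 RPKM to 78.3, 77.9 and 106 RPKM (log2 change 1.45 ± 0.24, adjusted p 6.51e-05). Coq7 and Coq4, for coenzyme Q, rose (log2 change 1.68 ± 0.21 and 1.53 ± 0.19, adjusted p 4.7e-06 and 4.49e-06). Coq9 and Coq10a did not pass (-0.11 and -0.14, adjusted p 0.546 and 0.378), Coq10a changing sign under quantile normalization (0.31, adjusted p 0.0495 in a range of 0.0495 to 0.963 over all alternatives) and Coq9 under median-of-ratios scaling (0.03, adjusted p 0.861 in a range of 0.0763 to 0.882 over all alternatives).

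Of 8 tested genes that exchange or regulate ATP, phosphate and protons across the membrane, 6 rose and 2 fell (median 0.93). Slc25a5, an ATP/ADP carrier, went from 324 and 319 RPKM to 873, 895 and 1117 RPKM (log2 change 1.57 ± 0.23, adjusted p 2.25e-05), and Slc25a4, its relative, had a log2 change of 1.27 ± 0.16 (adjusted p 4.55e-06). Atpif1, the inhibitor of complex V, fell from 159 and 156 RPKM to 41.0, 40.2 and 63.5 RPKM (log2 change -1.73 ± 0.23, adjusted p 9.01e-06), opposite to the members of complex V, and Ucp2, an uncoupling protein, from 384 and 431 RPKM to 182, 218 and 164 RPKM (log2 change -1.12 ± 0.16, adjusted p 1.73e-05). Of 17 tested regulators of mitochondrial gene expression, 9 rose and 3 fell (median 0.38). Slirp and Pprc1 rose (log2 change 1.28 ± 0.20 and 1.26 ± 0.30, adjusted p 4.27e-05 and 0.00153), and Ppargc1b and Esrra fell (-0.76 and -0.58, adjusted p 0.00188 and 0.00119), Ppargc1b missing the threshold under quantile normalization (-0.12, adjusted p 0.565 in a range of 0.000746 to 0.565 over all alternatives). Yy1, the most abundant, stood at 0.07 ± 0.12 (adjusted p 0.612). It passed after adjustment for GC content and length (0.49, adjusted p 8.86e-05 in a range of 8.86e-05 to 0.946 over all alternatives), and its sign changed under quantile normalization (-0.11, adjusted p 0.472) and with red cell genes out of the total (-0.05, adjusted p 0.775).

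For comparison, of 18 tested genes of glycolysis, 15 rose and 2 fell (median 0.97). Gapdh, Hk2 and Pgam1, enzymes of the pathway, rose by log2 1.99, 3.62 and 2.79 (adjusted p 1.42e-06, 4.68e-07 and 2.06e-07), and the glucose carrier Slc2a3 and the kinase Pfkm fell (-1.32 and -1.13, adjusted p 4.36e-06 and 0.00366). Of 76 mitochondrial ribosomal proteins, 72 rose and 0 fell by limma, 73 having an unadjusted p under 0.05 (median 0.98). Mrpl12, Mrps6 and Mrps22 rose by 2.17, 2.55 and 2.27 (adjusted p 3.2e-05, 8.08e-06 and 8.38e-07). Mrpl24 and Mrps26 did not pass (-0.16 and 0.25, adjusted p 0.166 and 0.229), except Mrps26 without the Th2 cultures (0.34, adjusted p 0.0345 in a range of 0.0345 to 0.521 over all alternatives) and Mrpl24 under quantile normalization (-0.40, adjusted p 0.00305 in a range of 0.00305 to 0.858 over all alternatives), after adjustment for GC content and length (-0.36, adjusted p 0.00549) and with red cell genes out of the total (-0.28, adjusted p 0.0345). Of 85 tested cytosolic ribosomal proteins, 31 rose and 4 fell (median 0.19). Rpl7l1 and Rps27l rose by 1.86 and 1.66 (adjusted p 1.66e-06 and 8.05e-05), Rps24 and Rps4l did not pass (-0.13 and -0.63, adjusted p 0.53 and 0.124), and Rps27 fell (log2 change -0.68 ± 0.27, adjusted p 0.0364). The sign of Rps24 changed under 3 alternatives, as with quantile normalization (0.06, adjusted p 0.738 in a range of 0.117 to 0.952 over all alternatives), which also changed that of Rps4l (0.05, adjusted p 0.9 in a range of 0.0624 to 0.9 over all alternatives). The call of Rps27 was lost without the Th1 cultures (-0.56, adjusted p 0.165 in a range of 0.00695 to 0.165 over all alternatives) and without either resting library (-0.74, adjusted p 0.0883, and -0.61, adjusted p 0.151). It was lost also under median-of-ratios scaling (-0.53, adjusted p 0.0964), with no filter (-0.68, adjusted p 0.0558) and under upper-quartile scaling (-0.61, adjusted p 0.0558). Beside these, 60 of the 75 tested subunits of oxidative phosphorylation rose and 1 fell. After actinomycin the median slopes were 0.03 log2 per hour for the mitochondrially encoded subunits, -0.05 for assembly factors, -0.03 for the tricarboxylic acid cycle, -0.06 for mitochondrial ribosomal proteins and 0.08 for cytosolic ribosomal proteins, beside 0.02 for the subunits. Without the 4 h library these were 0.09, -0.04, -0.05, 0.00 and 0.23, beside 0.11. Without the 0 h library, in the same order, they were 0.01, -0.08, -0.04, -0.09 and 0.00, beside -0.04.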

How the data were processed

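RNA sequencing values of 24 libraries were used as deposited: RPKM computed by the authors, with BWA and genome build GRCm38 given per the submitters' processing notes. The tool, annotation and strand of counting are not stated. All columns were used (0 unused). Mapped reads per library were derived from the steps between low values.

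The time course (2 resting libraries, 18 cultures) was fitted with limma 3.58.1 (R 4.3.3) on log2(RPKM + 0.5), time point as a factor and an intensity trend, over 10897 genes with a mean of 1 RPKM or more; conditions were fitted over the 18 cultures with time point as a factor. P-values were adjusted by Benjamini-Hochberg over all genes tested, with a threshold of 0.05. Slopes after actinomycin used log2(RPKM + 0.1), with an exact 2-sided permutation of 24 orders for named genes and no adjustment. Scripts were tested on simulated data. Python 3.11.15, numpy 2.4.6, pandas 2.3.3, scipy 1.17.1 and matplotlib 3.10.9 were used. Promoters came from RefSeq (GRCm38.p6).

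Genes named were the subunits with redox centres or catalytic sites, the isoform sets, the most abundant member of each complex, the 5 largest rises and falls at 24 h, the 3 largest of each at 4 h and between 24 h and 4 h, the 4 smallest p for each pair of conditions, the 3 steepest and shallowest slopes, and in each other list the most abundant gene and the 2 largest rises and falls at 24 h. Members and lists were chosen with earlier results of these data known. Alternatives changed the pseudocount, the filter, the scaling, the trend and the libraries fitted.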

Additional observations from a re-analysis of the deposited data

How the results depend on the processing

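Of the counts of members, those at 12, 16, 20 and 24 h against resting and at 24 h against 4 h stayed within 1.5 times their value under every alternative run. The members' median log2 change kept its sign in each contrast. Relative to all genes it changed sign at 4 h, from -0.058 to 0.0508 without the Th0 and 0.0341 without the Th1 cultures, and the median slope after actinomycin changed sign too. Other exceptions below concern size, calls or named genes. The cause was not tested. Counts of members under the alternatives are given without the share of all genes in the same fit.

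At 4 h against resting, 7 members changed with the values as deposited. There were 3 under median-of-ratios scaling, 3 under upper-quartile scaling and 11 under quantile normalization. Leaving out a condition or a resting library gave 1 to 20, and leaving out the Th2 4 h and Th2 24 h cultures gave 17. At 8 h, 30 members changed, 12 with only the libraries compared in the fit, and 10 to 31 with a condition or resting library left out. The members' median at 8 h less that of all genes went from 0.27 to 0.0426 under quantile normalization. In fits without 1 resting library, the spread of the remaining one was taken from the other groups.

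The median log2 change of the members moved with scaling. At 12 h, 0.462 became 0.586 under median-of-ratios scaling, 0.343 under quantile normalization and 0.385 with red cell genes out of the total. At 16 h, 0.538 became 0.342 under quantile normalization and 0.439 after adjustment for GC content and length. At 20 h, where the cultures' spread was smallest, 0.698 became 0.793, 0.515 and 0.598 under the 3 alternatives named for 12 h. It became 0.712 under upper-quartile scaling, 0.539 after adjustment for GC content and length, 0.669 with no filter, 0.721 with a filter at 5 RPKM, and 0.633 to 0.707 with a condition or resting library left out. At 24 h, 0.737 became 0.879 under median-of-ratios scaling, 0.527 under quantile normalization and 0.617 without red cell genes.

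Between Th2 and Th0, 26 members differed, 10 with 12 to 24 h alone, 11 with only the 2 conditions in the fit, and 10 to 29 with a time point left out. Between Th2 and Th1, 0 differed by limma (21 at an unadjusted p under 0.05). There was 1 under median-of-ratios and under upper-quartile scaling, with no filter, with 12 to 24 h alone and with only the 2 conditions in the fit. There were 2 after adjustment for GC content and length, 5 without the Th2 4 h and Th2 24 h cultures and 0 to 7 with a time point left out. Between Th1 and Th0, 0 differed by limma (3 at an unadjusted p under 0.05), and 0 to 1 with a time point left out. The median slope after actinomycin ran from -0.0379 without the 0 h library to 0.112 without the 4 h library. It was -0.00734 after adjustment for GC content and length.

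For named genes, 1802 of 1936 alternative values over 113 results kept their direction and side of the threshold, 60 no longer passed it and 37 newly passed it. The sign changed in 37 values over 15 results, all at 24 h against resting, and in 35 of them neither value passed the test. Under quantile normalization it changed for Sdha (-0.0898), Cox4i1 (-0.052), Ndufa3 (-0.125), Uqcrh (-0.00314), Ndufv3 (-0.147), mt-Co1 (0.182), mt-Atp8 (0.133), Cox20 (-0.073), Coq10a (0.313), Yy1 (-0.107), Rps24 (0.0572) and Rps4l (0.052). Uqcrh stood at -0.0613 without the Th2 4 h and Th2 24 h cultures, and leaving out a condition or resting library gave -0.0613 to 0.338. Ndufv3 stood at -0.0378 after adjustment for GC content and length, -0.1 with red cell genes out of the total and -0.0256 without the Th2 4 h and Th2 24 h cultures, and leaving out a condition or resting library gave -0.0402 to 0.0951. Cox20 stood at -0.03 after adjustment for GC content and length and -0.00847 without the Th2 4 h and Th2 24 h cultures, and leaving out a condition or resting library gave -0.00847 to 0.223. Ogdh stood at 0.143 after adjustment for GC content and length, 0.0928 under median-of-ratios scaling, 0.0139 under upper-quartile scaling and 0.0122 without the Th2 4 h and Th2 24 h cultures, and leaving out a condition or resting library gave -0.0954 to 0.0122. Idh2 stood at 0.136 under median-of-ratios scaling, 0.0578 under upper-quartile scaling and 0.0776 without the Th2 4 h and Th2 24 h cultures, and leaving out a condition or resting library gave -0.0683 to 0.0776. Coq9 stood at 0.032 under median-of-ratios scaling. Yy1 stood at -0.0475 with red cell genes out of the total. Rps24 stood at 0.0145 under median-of-ratios scaling, and leaving out a condition or resting library gave -0.281 to 0.0291. Of the slopes of 6 genes, 7 of 66 alternative values moved by at least 0.05 log2 per hour, a fixed bound, and 0 changed sign.

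The adjustment for GC content and length and the omission of the Th2 4 h and Th2 24 h cultures were chosen after seeing the data. RPKM are shares of a library's RNA, so RNA per cell was not measured. Each combination of condition and time, and each actinomycin time, had 1 library, so an effect of condition at a single time has no replicate check. The resting libraries have no partner among the cultures, so contrasts with rest were unpaired. At 24 h against 4 h, with skewing condition as a factor, 72 members changed and their median was 0.787. Reads of close copies and of genes overlapping on the other strand could not be assigned. At this depth, members at a few reads, such as Cox4i2 and Cox8b, have no measurable change.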
